A study of Homo sapiens with 12 samples.

Results

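The transcripts described here are those of 5 genes of iron uptake and redox stress, out of 18812 genes named for the array, each read by 1 of the 47230 probes of an Illumina expression BeadChip. The genes were chosen with earlier results of these data known. Their probes were fixed by identifier: TFRC is ILMN_1674243, HMOX1 is ILMN_1800512, NQO1 is ILMN_1720282, SLC7A11 is ILMN_1655229 and TXNIP is ILMN_1697448. The samples are 12 arrays of WM35, an established human melanoma cell line. Cells had received the vehicle DMSO (2 arrays), ciclopirox for 8 h (3 arrays) or 24 h (2 arrays), or crizotinib for 8 h (3 arrays) or 24 h (2 arrays). Ciclopirox, used against fungi, chelates iron, and crizotinib inhibits receptor tyrosine kinases including MET and ALK. All groups shared the same cell line and a medium with 5% serum. Doses were those that inhibited by 75% in an earlier assay at 72 h, and the control titles give no time. The series was made to derive drug response signatures in a melanoma line.

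Cells take up iron through the transferrin receptor, which TFRC encodes. When free iron is scarce, iron regulatory proteins bind the TFRC transcript and protect it from decay, and the same proteins hold back translation of ferritin. HMOX1, NQO1 and SLC7A11 are textbook targets of NRF2, a transcription factor that is released from KEAP1 under oxidative stress. Heme oxygenase 1 breaks down heme and frees its iron, NQO1 reduces quinones, and SLC7A11 is the cystine carrier that feeds glutathione synthesis. TXNIP encodes a protein that binds thioredoxin and slows glucose uptake, and its transcription is driven by MondoA and ChREBP, factors that sense sugar phosphates.

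Before any group can be compared, a disagreement between the deposited tables has to be set out. One table holds each array's intensities before normalization, and the sample descriptions tie its arrays, A to L by position on the chip, to samples. The other holds the authors' normalized values in columns named by sample. Each array's centred log2 profile matched 1 column of that second table, with a correlation of 0.904 or more, while no other column exceeded 0.639. For only 2 of the 12 arrays, the controls A and B, was the matching column that of the described sample. Under the descriptions, C, D and E are ciclopirox at 8 h, F and G ciclopirox at 24 h, H, I and J crizotinib at 8 h, and K and L crizotinib at 24 h. Under the value table, J, K and L hold ciclopirox at 8 h, E and F ciclopirox at 24 h, G, H and I crizotinib at 8 h, and C and D crizotinib at 24 h.

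**Figure D1:**
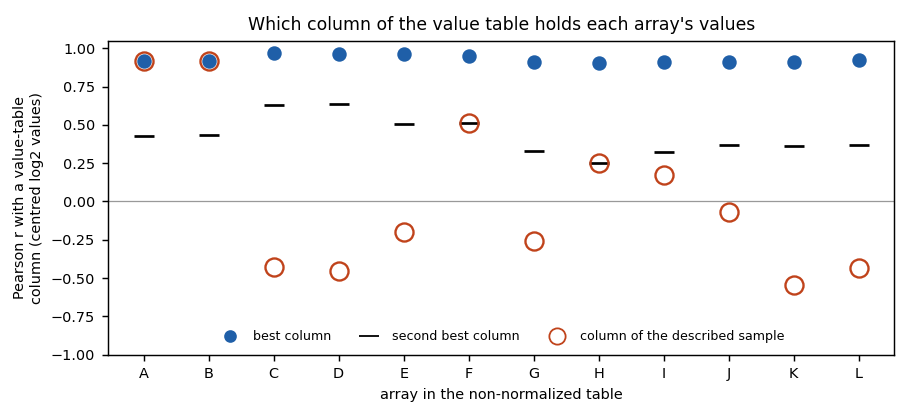
Pearson correlation across probes between each array of the non-normalized table (x axis) and columns of the authors' value table (y axis), with filled points for the best column, dashes for the second best and open circles for the column of the sample that the description names. The best column reached 0.904 or more for every array, and the open circle coincided with it for A and B only.

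The treatment was thus the same in both tables for 6 arrays (A and B control, E and F ciclopirox, H and I crizotinib), and the treatment and time for 5 of them, since E is 8 h in one table and 24 h in the other. The other 6 arrays changed drug. Arrays of 1 group had a mean correlation of 0.15 under the descriptions and 0.37 under the value table, and the array most like a given array had its label for 5 of 12 arrays and for 12 of 12. Which table is right is not settled by the sources used here. Results are therefore given first by array, then for the 6 arrays on which both tables agree about the drug, and then under each set of labels.

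The arrays detected between 15561 and 17106 probes each. All lie on 1 BeadChip where groups fill neighbouring positions, so position and group cannot be told apart. The labels do not say whether a group's arrays stand for separate cultures, and p-values measure only the spread between arrays, which may be technical. Of the melanocyte lineage markers, 8 of 10 had a probe: SOX10 was detected on 12 arrays and MITF on 11, while MLANA, PMEL, TYR, TYRP1, S100B and GPR143 were detected on 0. All 4 keratinocyte markers with a probe were detected on 0 arrays. COL1A1, COL3A1, DCN and PDGFRA of the fibroblast list and PTPRC, CD3E and LYZ of the leukocyte list were also detected on 0, whereas LUM was detected on 10 arrays, COL1A2 on 1 and CD14 on 9.

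The promoters of TXNIP and TFRC are shown, from RefSeq on GRCh38.p14. Both transcripts were called between the drugs over the arrays given the same drug by both tables. So was SLC7A11, for which no window was found. Windows of 250 bases before a start site, 4 in all, were found for 3 of the 5 genes (TFRC and NQO1 with 1 each, TXNIP with 2). The TXNIP window shown lies at chr1:145996580-145996829 on the minus strand, and the capitals mark a pair of carbohydrate response element half-sites 5 bases apart that begin 88 bases before the start. That motif was added after the sequence had been read, and 16 of 35116 promoter windows (0.0456%) hold it on either strand. The TFRC window lies at chr3:196082091-196082340 on the minus strand, and the capitals mark ACGTG, the core of the hypoxia response element, which also begins 88 bases before the start and which 18.5% of windows hold. The other TXNIP window, at chr1:145995745-145995994, has no such pair of half-sites and holds ACGTG 162 bases before its start.
TXNIP: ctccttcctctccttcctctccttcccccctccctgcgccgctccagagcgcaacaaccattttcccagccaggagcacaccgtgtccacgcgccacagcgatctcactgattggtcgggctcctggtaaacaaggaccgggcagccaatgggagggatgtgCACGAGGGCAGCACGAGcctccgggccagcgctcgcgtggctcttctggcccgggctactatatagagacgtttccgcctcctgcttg
TFRC: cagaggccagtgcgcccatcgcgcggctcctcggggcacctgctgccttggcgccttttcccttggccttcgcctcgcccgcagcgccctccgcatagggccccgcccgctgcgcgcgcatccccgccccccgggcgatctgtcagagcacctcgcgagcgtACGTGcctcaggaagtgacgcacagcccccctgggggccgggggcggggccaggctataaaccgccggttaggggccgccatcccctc
The antioxidant response element core TGACNNNGC (10.9% of windows) and the E-box CACGTG (6.34%, which contains ACGTG) were found in 0 of these windows, and the NQO1 window held none of the 4 motifs. A match describes letters only. Bases beyond these windows were not searched, so an absence holds for the window alone.

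TXNIP was higher than in both controls on all 10 drug-treated arrays, whichever table labels them, and it was the member with the widest range (2.59 on the log2 scale). Normalized log2 intensity was 8.90 and 9.02 on control arrays A and B. It was 11.27 on E and 11.48 on F, the ciclopirox arrays of both tables. It was 10.75 on H and 10.44 on I, the crizotinib arrays of both tables. Arrays C, D and G, which differ in drug between the tables, read 10.46, 10.60 and 10.64, beside H and I, and arrays J, K and L read 9.35, 9.56 and 9.56. Against the control mean these are 1.31-fold on J to 5.76-fold on F. With the 10 drug arrays as 1 group, TXNIP was 10.41 ± 0.72 (SD, n = 10) against 8.96 ± 0.08 (n = 2), and its difference of 1.45 ranked 3 among the rises of 18285 probes. limma did not call it (SE 0.45, adjusted p = 0.728). No member was called in that comparison (0 of 5, and 1 at an unadjusted p under 0.05), where 0.00547% of probes were called, and 2.79% of probes had every drug array above both controls.

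**Figure D2:**
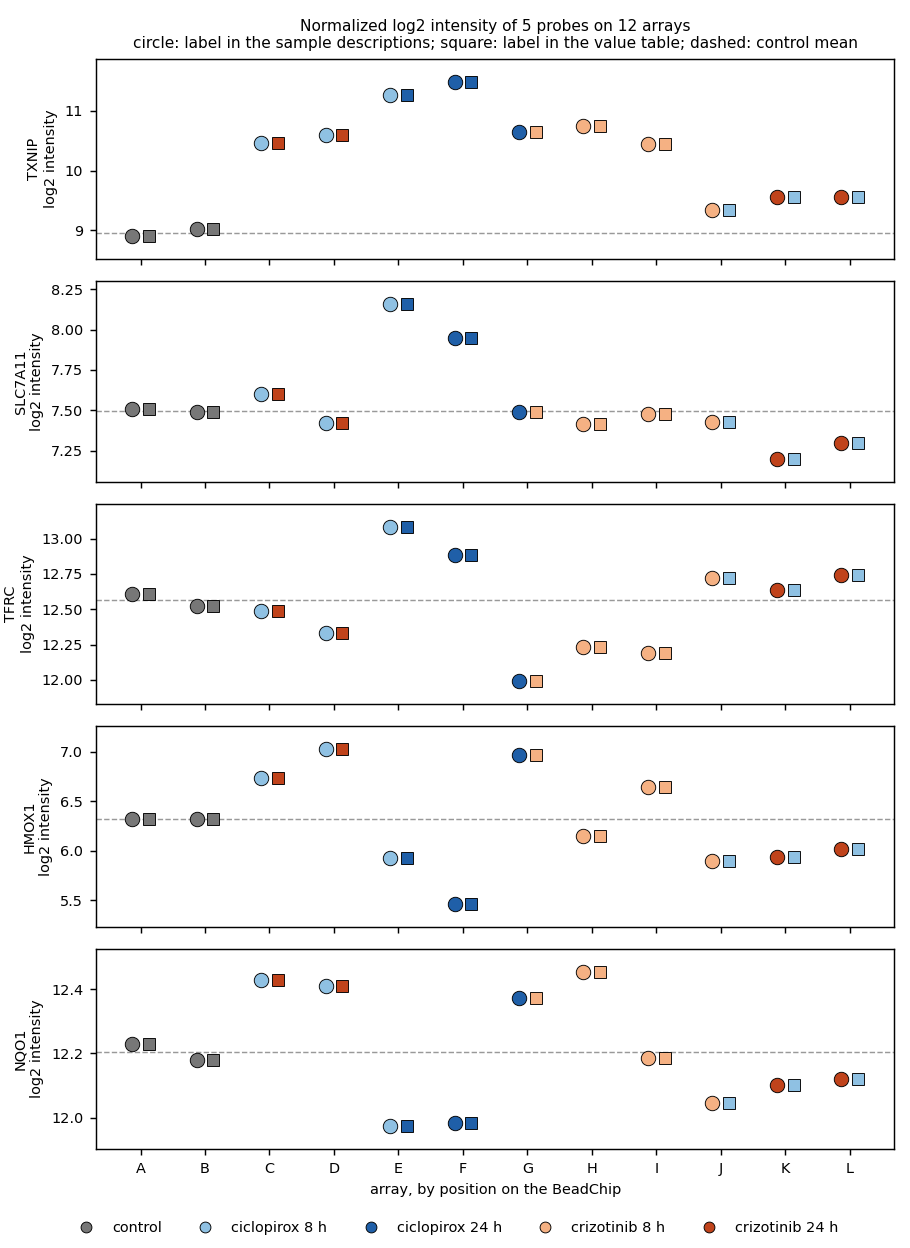
Normalized log2 intensity (y axis) of each of the 5 probes on arrays A to L (x axis), 1 point per array drawn as a circle in the colour of its described group and a square in the colour of its value-table group, with the control mean dashed. TXNIP lies above both controls on all 10 drug arrays. E and F hold the 2 highest TXNIP, SLC7A11 and TFRC values and the 2 lowest NQO1 values.

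Over the 6 arrays with 1 drug in both tables, TXNIP rose under both drugs, and more under ciclopirox. Ciclopirox arrays were at 11.38 ± 0.16 (SD, n = 2), a difference of 2.42 from the controls (SE 0.15, 95% interval 2.06 to 2.77, limma adjusted p = 0.000909), or 5.34-fold. Crizotinib arrays were at 10.60 ± 0.22 (n = 2), a difference of 1.64 (SE 0.15, adjusted p = 0.0265), or 3.11-fold. These ranked 5 and 5 among the rises of 18285 probes. The 2 drugs differed by 0.78 (SE 0.15, adjusted p = 0.0286), though the tables give E different times and F 24 h, while H and I are 8 h, so time is not matched. The shares of all probes called in the 3 comparisons were 8.9%, 0.104% and 6.58%, and of the members 2, 1 and 3 of 5. With any 1 of the 6 arrays left out, the call of ciclopirox against control kept an adjusted p of at most 0.0171, and the call of crizotinib against control was lost each time (0.0758 to 0.301). The difference between drugs was kept without H (0.0444) and lost without A, B, E, F or I (0.0632 to 0.12), and it was also lost with no background correction (0.0577) or no filter on dim probes (0.0588). Those settings ended the crizotinib call too (0.106 and 0.0828). RNA came from whole cultures, in which a change in every cell and a larger change in fewer cells cannot be told apart.

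Grouped by the value table, TXNIP levels within a group lay close together. TXNIP was highest in ciclopirox at 24 h (11.38 ± 0.16, n = 2), then crizotinib at 8 h (10.61 ± 0.16, n = 3) and at 24 h (10.53 ± 0.10, n = 2), whose ranges overlapped, then ciclopirox at 8 h (9.49 ± 0.12, n = 3) and control (8.96 ± 0.08, n = 2). Ciclopirox at 24 h exceeded control by 2.42 (adjusted p = 3.66e-06), crizotinib at 8 h by 1.65 (adjusted p = 0.000173) and crizotinib at 24 h by 1.57 (adjusted p = 3.04e-05). Ciclopirox at 8 h exceeded control by 0.53, or 1.45-fold, without passing the threshold (adjusted p = 0.0901). It did pass with only probes detected on every array (adjusted p = 0.0454) or with array weights (0.0349). Between the times of ciclopirox TXNIP rose by 1.89 (3.70-fold, adjusted p = 9.13e-06), while between the times of crizotinib the difference was -0.08 (95% interval -0.36 to 0.19, adjusted p = 0.684). At 8 h ciclopirox was below crizotinib by 1.12 on the log2 scale (2.18-fold, adjusted p = 0.000332), and at 24 h above it by 0.85 (adjusted p = 0.00185).

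Grouped by the descriptions, the same arrays gave wide groups. TXNIP was 11.06 ± 0.60 in ciclopirox at 24 h (n = 2), 10.77 ± 0.43 in ciclopirox at 8 h (n = 3), 10.18 ± 0.74 in crizotinib at 8 h (n = 3), 9.56 ± 0.00 in crizotinib at 24 h (n = 2) and 8.96 ± 0.08 in control. The ranges of the first 3 groups overlapped, and crizotinib at 24 h lay within the range of crizotinib at 8 h. One comparison was called: ciclopirox at 8 h exceeded control by 1.81 (SE 0.38, 3.52-fold, adjusted p = 0.0351). That call was lost without control replicate 1 or 2 (adjusted p = 0.231 and 0.253), ciclopirox 8 h replicate 1 or 2 (0.0949 and 0.0551), crizotinib 8 h replicate 2 (0.053), and also without any 1 of the crizotinib 24 h arrays (0.055). The difference of ciclopirox at 24 h from control was 2.10 (SE 0.41, adjusted p = 0.345), that of crizotinib at 8 h was 1.22 (0.774) and that of crizotinib at 24 h was 0.60 (0.964). Ciclopirox at 8 h read 0.59 above crizotinib at 8 h (adjusted p = 0.317), the opposite sign from the value table's labels.

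SLC7A11, the cystine carrier, was highest on the 2 arrays that both tables call ciclopirox. On the other drug arrays its difference from the control mean ran from -0.30 on K to 0.10 on C. It read 8.16 on E and 7.95 on F, against 7.51 on A and 7.49 on B. Crizotinib arrays H and I read 7.42 and 7.48. Arrays C, D and G read 7.60, 7.42 and 7.49, and J, K and L read 7.43, 7.20 and 7.30. Of the 10 drug arrays 3 were above both controls and 7 below. Deposited intensities ran from 113 on K to 302 on E, so the probe was dim but detected on all 12 arrays.

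Over the 6 shared arrays SLC7A11 rose under ciclopirox by 0.55 (SE 0.12, 1.47-fold, adjusted p = 0.0377), and ciclopirox exceeded crizotinib by 0.61 (adjusted p = 0.032). Crizotinib differed from control by -0.05 (95% interval -0.34 to 0.24, adjusted p = 0.912). Leaving out any 1 of the 6 arrays ended both calls (adjusted p 0.0543 to 0.195 and 0.0564 to 0.121). By the value table's labels, SLC7A11 was 8.05 ± 0.15 in ciclopirox at 24 h, 7.51 ± 0.13 in crizotinib at 24 h, 7.50 ± 0.02 in control, 7.46 ± 0.04 in crizotinib at 8 h and 7.31 ± 0.11 in ciclopirox at 8 h. Ciclopirox at 24 h stood apart from the rest, control lay within the range of crizotinib at 24 h, and the 2 groups at 8 h overlapped. The rise at 24 h over control was 0.55 (adjusted p = 0.00939), over ciclopirox at 8 h 0.75 (adjusted p = 0.0011) and over crizotinib at 24 h 0.54 (adjusted p = 0.00963). The first was lost on leaving out either control (0.0557 for replicate 1 and 0.0635 for replicate 2) or ciclopirox 24 h replicate 1 (0.0689), and the third without crizotinib 24 h replicate 2 (0.0654) or ciclopirox 24 h replicate 1 (0.072). By the descriptions' labels, no SLC7A11 difference was called, with 7.73 ± 0.38 and 7.72 ± 0.33 in the 2 ciclopirox groups. There its difference between the times of ciclopirox was -0.01, so its direction there depends on the labels.

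TFRC, the receptor for iron-laden transferrin, had deposited intensities from 3984 to 8355, and its arrays spread on both sides of the controls. It read 12.61 and 12.52 on A and B, 13.08 and 12.88 on E and F, and 12.24 and 12.19 on H and I. Arrays C, D and G read 12.49, 12.33 and 11.99, and J, K and L read 12.72, 12.64 and 12.74. Of the 10 drug arrays 5 were above both controls and 5 below. On the shared arrays ciclopirox exceeded crizotinib by 0.77 (SE 0.12, 1.71-fold, adjusted p = 0.0157), a call lost without E (0.0723), H (0.0638) or I (0.0756). Against control the ciclopirox arrays differed by 0.42 (adjusted p = 0.0811) and the crizotinib arrays by -0.35 (adjusted p = 0.351), neither past the threshold.

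In the value table's grouping, TFRC was 12.98 ± 0.14 in ciclopirox at 24 h, 12.70 ± 0.06 in ciclopirox at 8 h, 12.56 ± 0.06 in control, 12.41 ± 0.11 in crizotinib at 24 h and 12.14 ± 0.13 in crizotinib at 8 h, and neighbouring groups in this order did not overlap. Ciclopirox exceeded crizotinib by 0.56 at 8 h (adjusted p = 0.00961) and by 0.58 at 24 h (adjusted p = 0.00821). The call at 24 h was lost without crizotinib 24 h replicate 2 (0.0571) or ciclopirox 24 h replicate 1 (0.0639). Ciclopirox at 24 h exceeded control by 0.42 (1.34-fold, adjusted p = 0.0381), and 6 of 12 omissions of 1 array ended that call: either control (0.109 and 0.181), ciclopirox 24 h replicate 1 (0.2), crizotinib 8 h replicate 3 (0.0503) and ciclopirox 8 h replicate 1 or 3 (0.0541 and 0.0518). The call was also lost with median centring (0.34, adjusted p = 0.0963), no filter on dim probes (0.0616), only the groups compared (0.107) or the replicate block (0.0578). Crizotinib at 8 h differed from control by -0.43 (adjusted p = 0.0854). That difference passed with median centring, with probes detected on every array or with array weights. In the descriptions' grouping, TFRC group means lay between 12.38 and 12.69 with SDs up to 0.63, and no difference was called.

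HMOX1, heme oxygenase 1, gave a dim signal, with deposited intensities from 29.3 on F to 129 on D. Every array passed the detection threshold of 0.01, with F closest to it at 0.00649. Log2 values were 6.32 on both controls, 5.93 and 5.47 on E and F, and 6.16 and 6.65 on H and I. Arrays C, D and G read 6.73, 7.03 and 6.97, the 3 highest, and J, K and L read 5.90, 5.94 and 6.02. HMOX1 was thus lower on the ciclopirox arrays of both tables than on either control, and the crizotinib arrays lay on both sides. The differences over the shared arrays were -0.62 for ciclopirox against control (adjusted p = 0.108), 0.08 for crizotinib against control (0.922) and -0.70 for ciclopirox against crizotinib (0.0915), none past the threshold.

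Under the value table's labels HMOX1 was 6.88 ± 0.21 in crizotinib at 24 h, 6.59 ± 0.41 in crizotinib at 8 h, 6.32 ± 0.00 in control, 5.95 ± 0.06 in ciclopirox at 8 h and 5.70 ± 0.32 in ciclopirox at 24 h. Ranges overlapped between the 2 crizotinib groups, between crizotinib at 8 h and control, and between the 2 ciclopirox groups. At 24 h ciclopirox was below crizotinib by 1.18 on the log2 scale (2.27-fold, SE 0.23, adjusted p = 0.00559), a call that held in all 12 omissions of 1 array (adjusted p 0.0015 to 0.05). Crizotinib at 24 h read 0.56 above control (adjusted p = 0.115) and was called only without crizotinib 8 h replicate 2. Ciclopirox differed from control by -0.62 at 24 h (limma adjusted p = 0.0908) and by -0.37 at 8 h (0.5), neither past the threshold. Under the descriptions' labels HMOX1 at 24 h read 0.24 higher under ciclopirox than under crizotinib (SE 0.44, adjusted p = 0.901), where ciclopirox was 6.22 ± 1.06 (n = 2), with F at 5.47 and G at 6.97.

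NQO1, the quinone reductase, moved least, with a range of 0.48 on the log2 scale over the 12 arrays. It read 12.23 and 12.18 on A and B, 11.97 and 11.98 on E and F, and 12.45 and 12.18 on H and I. Arrays C, D and G read 12.43, 12.41 and 12.37, and J, K and L read 12.04, 12.10 and 12.12. E and F were the lowest, and the shared-array differences were -0.23 for ciclopirox against control (adjusted p = 0.306) and -0.34 against crizotinib (adjusted p = 0.167). Grouped by the value table, NQO1 was 12.42 ± 0.01 in crizotinib at 24 h, 12.34 ± 0.14 in crizotinib at 8 h, 12.20 ± 0.03 in control, 12.09 ± 0.04 in ciclopirox at 8 h and 11.98 ± 0.01 in ciclopirox at 24 h, with overlap between the crizotinib groups and between crizotinib at 8 h and control. Only ciclopirox against crizotinib at 24 h was called, at -0.44 (1.36-fold lower, SE 0.11, adjusted p = 0.0167). That call was lost without crizotinib 24 h replicate 1 or 2 (0.0758 and 0.0592) or ciclopirox 24 h replicate 1 or 2 (0.0693 and 0.0634), with median centring (-0.40, 0.0527) and with only the groups compared (0.117). Grouped by the descriptions, the same difference was 0.07 (adjusted p = 0.947). A second NQO1 probe, ILMN_2354953, was detected on 0 arrays and gives no level.

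**Figure D3:**
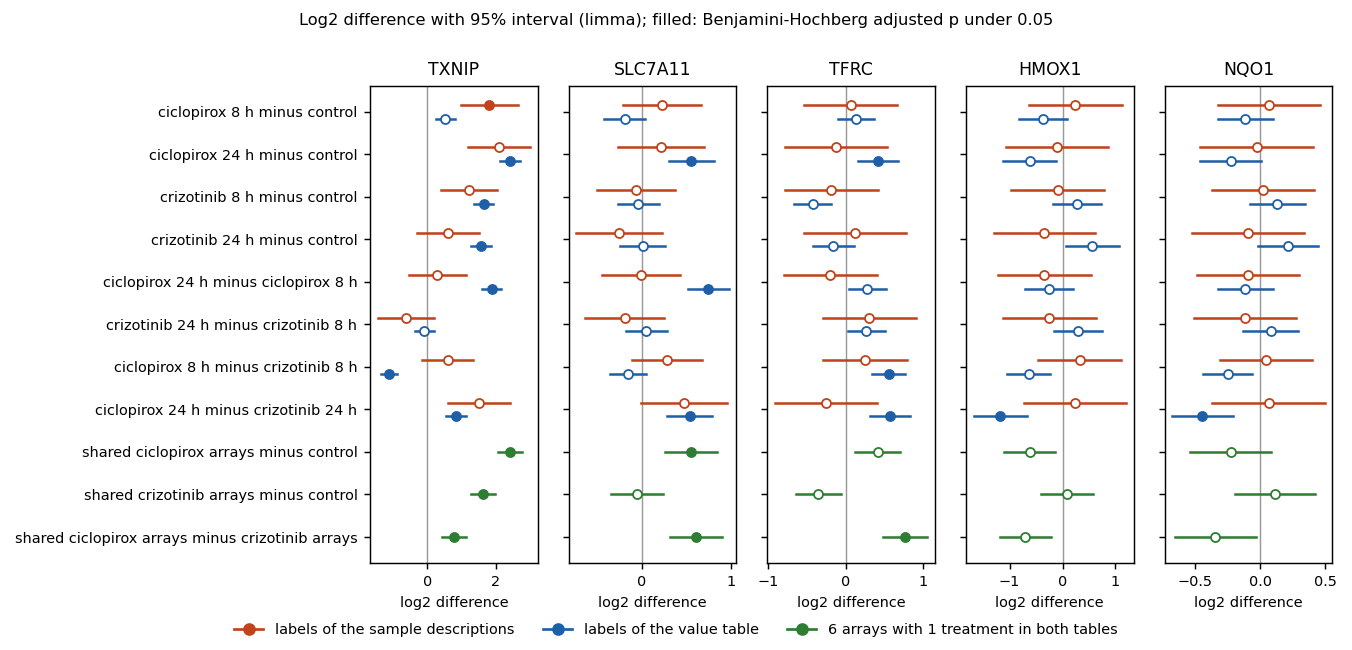
Log2 difference (x axis) with its 95% interval from limma for each of the 5 probes in 8 comparisons under each set of labels and in 3 comparisons over the 6 shared arrays (y axis), filled where the adjusted p is under 0.05. By the value table's labels, all 5 probes are filled for ciclopirox 24 h minus crizotinib 24 h, whereas under the descriptions' labels TXNIP in ciclopirox 8 h minus control is the only filled point.

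Counted together, members called depended on the labels, as did the share of all probes called. In the value table's grouping, 3 of 5 were called for ciclopirox at 24 h against control, all higher (14.6% of all probes called), and 1 of 5 for crizotinib at 8 h (1.53%) and at 24 h (18.9%) against control, TXNIP each time. Ciclopirox at 8 h against control gave 0 of 5 by limma, 1 at an unadjusted p under 0.05 (0.536% of probes). The times of ciclopirox gave 2 of 5 (17.1%) and those of crizotinib 0 of 5, 1 unadjusted (20.3%). Ciclopirox against crizotinib gave 2 of 5 at 8 h (4.2%) and 5 of 5 at 24 h (14.8%), with TFRC, SLC7A11 and TXNIP higher under ciclopirox and HMOX1 and NQO1 lower. By the descriptions' labels, 1 of 5 was called for ciclopirox at 8 h against control (2.84%), and 0 of 5 elsewhere. There the share of probes called was 0.00547% for ciclopirox at 24 h against control, 2.85% for ciclopirox against crizotinib at 8 h and 0% in the other 5 comparisons. At an unadjusted p under 0.05, 1 of 5 members passed for ciclopirox at 24 h against control, for crizotinib at 8 h against control and for ciclopirox against crizotinib at 24 h, TXNIP each time, and 0 passed in the remaining 4. The comparisons against control share the same 2 control arrays.

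The authors' own normalized values, read by sample name, hold 4 of the 5 probes, TFRC not among them. From the authors' deposited table, limma gave TXNIP differences from control of 0.49 for ciclopirox at 8 h (adjusted p = 0.119), 2.42 at 24 h (7.08e-06), 1.66 for crizotinib at 8 h (0.000234) and 1.59 at 24 h (4.31e-05). SLC7A11 under ciclopirox at 24 h exceeded control by 0.59 (adjusted p = 0.0161) and ciclopirox at 8 h by 0.83 (0.00171). These sit beside the values under the value table's labels because both use that table's assignment.

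Levels of the members over the 12 arrays, as a description of arrays that share 1 chip and unsettled labels, paired TFRC against HMOX1 and NQO1. Pearson's r was -0.78 for TFRC with HMOX1, -0.79 for TFRC with NQO1 and 0.78 for HMOX1 with NQO1. SLC7A11 and TXNIP had r = 0.64, and TFRC and TXNIP had r = 0.01. Among the other 18284 kept probes, those most like TFRC were of RSRC2 (r = 0.96), PLAT (0.96) and the unnamed probe ILMN_1744381 (0.94). PTOV1 (0.95), MAGED1 (0.91) and PCDHB17P (0.91) were most like HMOX1, and PCOLCE (0.95), SGCE (0.93) and SRSF5 (0.93) most like NQO1. DMTF1 (0.97), SNRPN (0.97) and EIF1B (0.96) were most like SLC7A11, and ATXN2 (0.96), AVL9 (0.94) and ANXA11 (0.94) most like TXNIP.

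**Figure D4:**
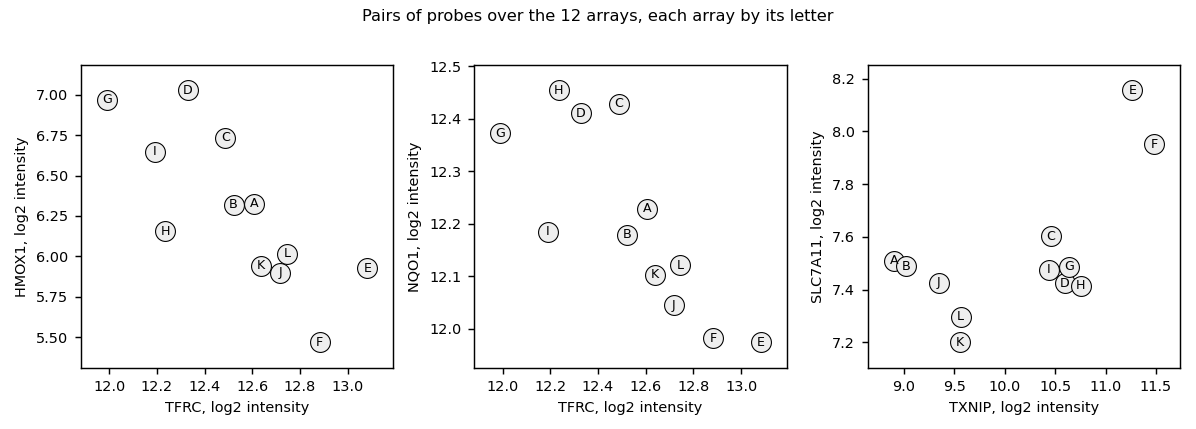
Normalized log2 intensity of HMOX1 and NQO1 against TFRC, and of SLC7A11 against TXNIP, with 1 lettered point for each of the 12 arrays. E and F, the ciclopirox arrays of both tables, lie at high TFRC with low HMOX1 and NQO1, and at the top right for TXNIP and SLC7A11.

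The shares of all probes called, against which the counts of the following lists are to be read, were 8.9% for ciclopirox and 0.104% for crizotinib against control and 6.58% between drugs over the shared arrays. Of 20 listed genes of iron handling 13 were measured, with 0 called over the shared arrays for either drug against control and 2 called, both higher, for ciclopirox against crizotinib: TFRC and SLC25A37, which carries iron into mitochondria (0.61, adjusted p = 0.0339). The median difference of the 13 was 0.21 for ciclopirox against control, beside -0.01 over all probes. The closest to a call were SLC25A37 (0.46, adjusted p = 0.067) and STEAP3, an endosomal ferric reductase (-0.47, 0.0722). Under the value table's labels ciclopirox at 24 h against control (14.6% of all probes called) had 3 higher, SLC25A37 (0.46, adjusted p = 0.0202), SLC39A14 (0.44, 0.0256) and TFRC, and 1 lower, STEAP3 (-0.47, 0.0458). SLC39A14 imports iron and zinc. Crizotinib at 24 h (18.9% of all probes called) had 3 higher and 0 lower: FTL, the ferritin light chain (0.69, adjusted p = 0.000509), NCOA4, which delivers ferritin to lysosomes (0.45, 0.0051), and ISCU, an iron-sulfur scaffold (0.40, 0.0137). Crizotinib at 8 h (1.53% of all probes called) had 1 higher: FBXL5, which marks iron regulatory protein 2 for decay when iron is ample (0.71, 0.0324). Ciclopirox at 8 h (0.536% of all probes called) had 0 of 13 in limma. In the descriptions' grouping, 0 of 13 were called in each of the 8 comparisons, where at most 2.85% of all probes were called.

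The NRF2-responsive list, which includes HMOX1, NQO1 and SLC7A11, moved in no single direction. Of 24 listed genes 18 were measured. Over the shared arrays ciclopirox against control had 2 higher, SLC7A11 and its partner chain SLC3A2 (0.54, adjusted p = 0.0322), and 1 lower, GCLM, a subunit of the enzyme that starts glutathione synthesis (-0.72, 0.0185). Log2 values of GCLM were 9.06 and 8.94 on E and F against 9.72 and 9.70 on the controls. The median of the 18 was -0.05, beside -0.01 over all probes. Crizotinib against control had 0 called, with SQSTM1, the autophagy receptor p62, at 0.80 (adjusted p = 0.093). SQSTM1 read 14.09 and 14.00 on H and I and 14.52, 14.65 and 14.09 on C, D and G, against 13.26 and 13.24 on the controls. Grouped by the value table, crizotinib at 24 h against control had 5 higher and 1 lower of 18, beside 18.9% of all probes called, led by SQSTM1 (1.33, adjusted p = 9.65e-06), ABCC2, an export pump (1.09, 0.00179), and FTL, with GCLM lower (-0.46, 0.0139). Ciclopirox against crizotinib at 24 h had 2 higher and 7 lower of 18, beside 14.8% of all probes called. Under the descriptions' labels 0 of 18 were called in any comparison, beside at most 2.85% of all probes.

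In the thioredoxin and glutathione list 18 of 20 genes were measured, and 2 were called for ciclopirox against control over the shared arrays: TXNIP and SESN2, a stress-induced sestrin (2.54, SE 0.30, adjusted p = 0.00622). SESN2 read 8.07 and 7.94 on E and F and between 4.81 and 6.24 on the other 10 arrays. The thioredoxins and peroxiredoxins of the list gave no call there, and the median of the 18 was 0.04. Crizotinib against control had TXNIP alone, and ciclopirox against crizotinib had SESN2 (2.69, adjusted p = 0.00423) and TXNIP. By the value table's labels, ciclopirox at 24 h against control added CAT, catalase (-0.42, adjusted p = 0.0132), and SOD2, the mitochondrial superoxide dismutase (-0.39, 0.0474), both lower. There 14.6% of all probes were called. Crizotinib at 24 h had 5 higher and 0 lower of 18, beside 18.9% of all probes called, among them TXNRD2, the mitochondrial thioredoxin reductase (0.56, 0.0177), and GPX1, a glutathione peroxidase (0.46, 0.0103). Grouped by the descriptions, TXNIP was called for ciclopirox at 8 h against control and GSS, glutathione synthetase, for ciclopirox against crizotinib at 8 h (0.47, 0.047). The shares of all probes called in these 2 comparisons were 2.84% and 2.85%.

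Of 12 regulators 6 were measured, without MLXIP, the gene of MondoA. ARRDC3, an arrestin of the TXNIP family, was the 1 called for ciclopirox against control over the shared arrays (0.97, SE 0.17, adjusted p = 0.0189) and for ciclopirox against crizotinib (1.04, 0.0156). It read 6.61 and 6.71 on E and F against 5.81 and 5.57 on the controls. In the value table's grouping, MAFF, a small MAF partner of NRF2 and BACH1, was also higher in ciclopirox at 24 h than in control (0.57, adjusted p = 0.0449). MAFG (0.43, 0.0454) and MLX, the dimer partner of MondoA (0.36, 0.0253), were higher in crizotinib at 24 h. MAFF and MAFG each had another kept probe, whose values are not given. The shares of all probes called at 24 h were 14.6% for ciclopirox and 18.9% for crizotinib against control. The transcript of NRF2 itself, NFE2L2, and that of KEAP1 were called in none of the 20 comparisons run. By the descriptions' labels, 0 of 6 were called in any comparison, beside at most 2.85% of all probes.

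**Figure D5:**
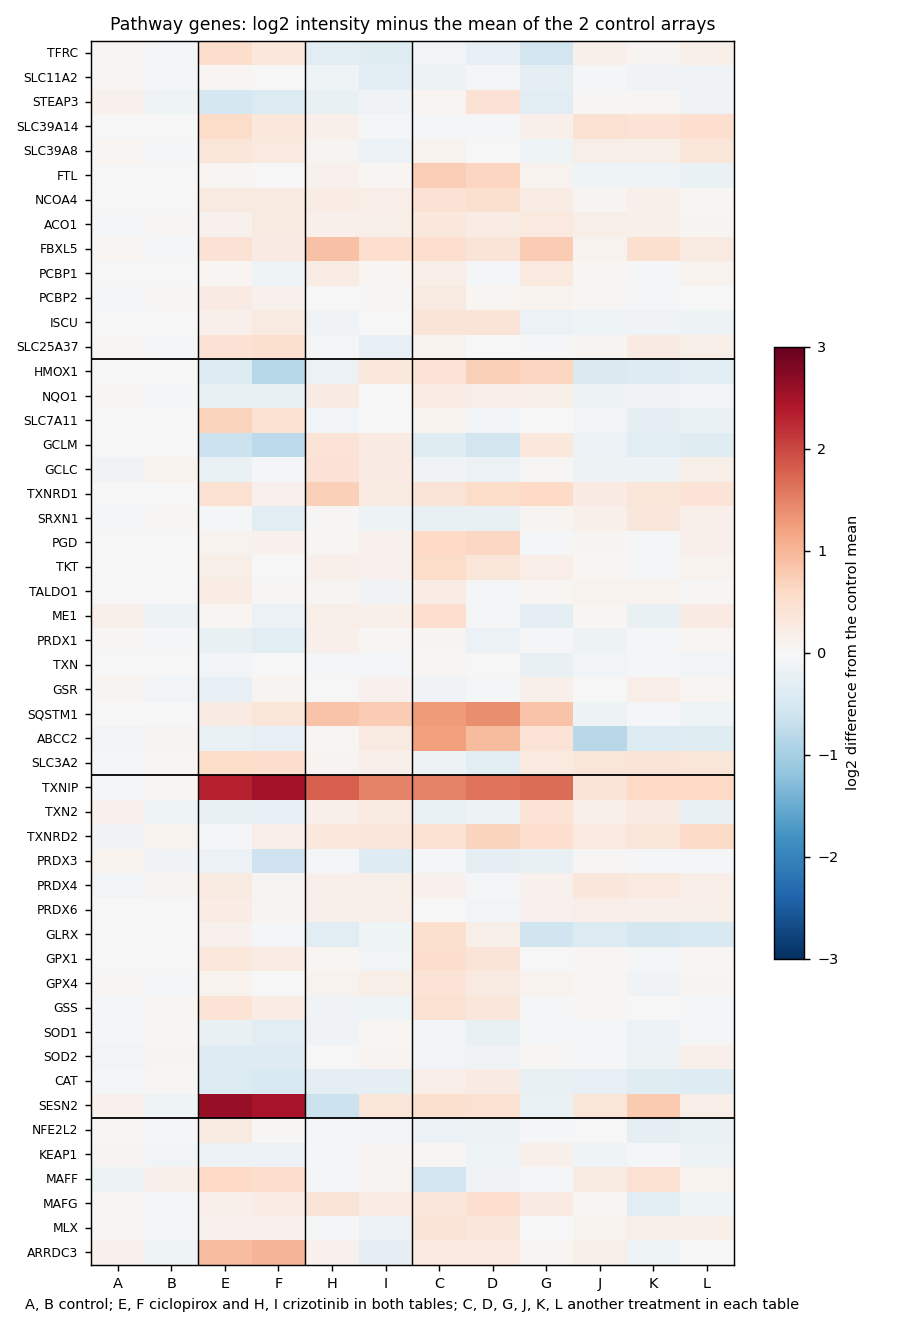
Log2 intensity minus the mean of the 2 controls (colour scale, log2 units) for each measured gene of the 4 lists (y axis, each gene shown once, black lines between lists) on the 12 arrays (x axis), with arrays of the same treatment in both tables at the left. TXNIP is above control on all 10 drug arrays, SESN2 and ARRDC3 are high on E and F, and SQSTM1 is high on H, I, C, D and G.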

How the data were processed

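RNA (300 ng a sample) was hybridised to 12 arrays on 1 Illumina HumanHT-12 BeadChip. The authors deposited non-normalized probe intensity with a detection p-value for each array, exported with GenomeStudio per the submitters' processing notes. They also deposited a second table of normalized intensity on a linear scale for 38223 probes. The labels and headers do not name its normalization method, and column medians were 25.0 to 26.4. From the deposited intensity, log2 values were computed with limma 3.58.1 in R 4.3.3 (neqc: background correction by detection p, offset 16, quantile normalization). The 18285 of 47230 probes with a detection p under 0.01 on at least 2 arrays were kept. Differences were tested with lmFit and eBayes, which share 1 estimate of the spread, with Benjamini-Hochberg adjustment over all kept probes and a threshold of 0.05. The number of arrays limits the precision.

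Group labels were taken from the sample descriptions, as planned. Labels taken by matching each array to the value table, the 6 arrays with the same drug in both tables, and all drug arrays as 1 group were added after seeing the data. The probe table names 27004 probes with 1 gene, 13132 of them kept. It names 4 of the 5 members; the TFRC probe is named by the pairing given with the selection rule. Named list genes are those past the threshold, up to 3 a direction in each comparison, or up to 2 by smallest p where none passed. Each list gene was read by a single probe: a member by its fixed probe, another gene by its kept probe with the highest mean over the 12 arrays. Named genes with another kept probe, whose result is not given, include MAFF, MAFG, FBXL5, FTL, ISCU and SLC3A2. The members and lists were chosen with earlier results of these data known. The fit was also run on simulated data, with independent normal noise of the same SD for every probe. Neither the disagreement of labels nor correlation between arrays was simulated, so that run checks the code only. Alternatives were no background correction, median centring, other filters, the authors' values, array weights, only the groups compared, a replicate block and leaving out arrays. Same-numbered arrays of the 8 h groups deviated together under the descriptions (r 0.169, 0.335 and 0.299). The labels do not say that arrays pair. The reported fits have no term for replicate number, which entered only in the replicate block. Those numbered 3 are E and J, each set apart by the value table from the other arrays of its described group. Whether that gave the correlation was not tested. Between the times of ciclopirox under the descriptions r was -0.262 and 0.217. Under the value table's labels it was -0.058, -0.105 and 0.022 between the 8 h groups. Between the 24 h groups it was 0.379 there, a single value because each group has 2 arrays.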

Additional observations from a re-analysis of the deposited data

Results flagged for a closer look

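Under the value table's labels the effect of ciclopirox differed between its 2 times for both SLC7A11 and TXNIP, by the test of the difference itself. SLC7A11 at 24 h exceeded its level at 8 h by 0.745 on the log2 scale (limma adjusted p = 0.0011), and TXNIP by 1.89 (adjusted p = 9.13e-06). Both groups are read against the same controls, so these are also the differences between the effects at 24 h and 8 h. Under the descriptions' labels the same differences were -0.01 and 0.29, neither past the threshold.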

How the results depend on the processing

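The count of the 5 genes called (4 with the authors' values, which lack TFRC) moved by over 1.5 times with the following settings. Under the descriptions' labels, ciclopirox 8 h against control gave 0 with no background correction, with no filter on dim probes or with the authors' values, and 0 to 1 with 1 array left out. The authors' values, which carry the other table's labels, gave 2 for ciclopirox 24 h, 1 for crizotinib 8 h and 1 for crizotinib 24 h against control. They gave 2 between the times of ciclopirox, and 1 and 4 for ciclopirox against crizotinib at 8 h and 24 h. All probes called moved too over the processing alternatives, from 0 to 234 for crizotinib 8 h and 0 to 2950 for crizotinib 24 h against control. For ciclopirox 24 h against control they ran from 0 to 2208. Between the times they ran from 0 to 2622 for ciclopirox and 0 to 3028 for crizotinib. Between the drugs they ran from 0 to 2310 at 8 h and 0 to 2254 at 24 h, so these counts of members are not to be read alone. Without 3 arrays that resembled another label in earlier results (E, G and J), which narrows the spread by construction and leaves ciclopirox 24 h with array F alone, assumed to vary like the other groups, the counts were 1 for ciclopirox 24 h and 1 for crizotinib 8 h against control, 2 and 1 between times of ciclopirox and crizotinib, and 2 for the drugs at 24 h. Under the value table's labels, ciclopirox 8 h gave 1 with probes detected on all arrays or array weights. Ciclopirox 24 h gave 1 with only the groups compared and 1 to 4 with 1 array left out. It gave 2 with median centring, no filter on dim probes or the replicate block, a change of 1.5 times and no more. Crizotinib 8 h gave 2 with median centring, probes detected on all arrays or array weights, and crizotinib 24 h gave 1 to 2 with 1 array left out. The drugs gave 1 at 8 h with the authors' values, where TFRC was not tested and TXNIP passed, and at 24 h 2 with only the groups compared and 2 to 5 with 1 array left out. On the 6 shared arrays, ciclopirox gave 1 with no background correction, median centring, no filter or the authors' values, and 1 with any array left out. Crizotinib gave 0 with no background correction, no filter or any array left out. Ciclopirox against crizotinib gave 1 with the authors' values and 0 to 1 with 1 array left out.

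Direction was followed only for differences called under either set of labels or on the shared arrays, and for TXNIP over all drug arrays. Among these it turned only under the descriptions' labels, for differences that were not called there. SLC7A11 between the times of ciclopirox (-0.01) became 0.10 with array weights, 0.83 with the authors' values, 0.095 with the replicate block and 0.44 without the 3 arrays, and ran from -0.24 to 0.22 with 1 array left out, where TXNIP ran from -0.13 to 0.71. TXNIP at 8 h, ciclopirox against crizotinib, became -1.17 with the authors' values and -0.0688 without the 3 arrays. At 24 h that comparison became -1.08 and -0.51 for HMOX1, -0.47 and -0.13 for NQO1 and, without the 3 arrays, 0.19 for TFRC. With 1 array left out it ran from -0.51 to 0.99, -0.13 to 0.26 and -0.70 to 0.19. TFRC in ciclopirox 24 h against control became 0.32 without the 3 arrays, which is array F alone against the controls, and ran from -0.57 to 0.32 with 1 left out, and SLC7A11 from -0.0111 to 0.45. The cause was not tested, apart from the labels that the authors' values carry. With the replicate block, TXNIP in ciclopirox 8 h against control was 1.90 (adjusted p = 0.0281), the block changed no call of the 5 genes under the descriptions' labels, and all probes called there numbered 1353 against 519 without it. Under the value table's labels the replicate block ended the TFRC call for ciclopirox 24 h against control (adjusted p = 0.0578). Median centring moved the median of all probes by -0.115 and -0.138 for the 8 h drug groups against control under the value table's labels. Over the processing alternatives, the count of all probes called for ciclopirox 8 h against control ran from 90 to 3395 under the descriptions' labels (519 as reported) and from 4 to 394 under the value table's labels (98 as reported). On the 6 shared arrays it ran from 965 to 1642 for ciclopirox against control (1627 as reported) and from 1 to 37 for crizotinib (19 as reported), and with 1 array left out from 116 to 1403 and 0 to 0.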
